A study of Mus musculus with 5 samples.

Results

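The genes of glycolysis and of the response to low oxygen were examined in the RNA sequencing of murine lung cancer-associated fibroblasts (CAFs), as a set of 33 genes among the 21835 in the deposited table. The rule lists them by name, as 17 glycolytic enzymes (Hk1, Hk2, Gpi1, Pfkl, Pfkm, Pfkp, Aldoa, Aldoc, Tpi1, Gapdh, Pgk1, Pgam1, Eno1, Eno2, Pkm, Ldha and Ldhb), 3 kinases that set the flux into or out of the pathway (Pfkfb3, Pfkfb4 and Pdk1), 5 genes of the hypoxia-inducible factors (HIFs) and their degradation (Hif1a, Epas1, Egln1, Egln3 and Vhl) and 8 target genes of HIF (Bnip3, Bnip3l, Ddit4, Ankrd37, Ndrg1, Car9, P4ha1 and P4ha2). The control group, CAF-vec (n = 2, genotype given as WT control), and the group overexpressing miR-200, CAF-200 (n = 3), were cultured CAFs grown without any stated change in oxygen. CAF-200 carried the mouse miR-200b/a/429 cluster in a lentiviral vector, which the labels name as pLVX-Neo with G418 selection and the methods as pLVX-Hyg, and CAF-vec is taken from its name and the methods to carry the empty vector. The labels do not say that the samples of a group came from separate infections or separate CAF isolates, so p values measure only the spread between these samples, which may be technical. The depth of each sample is unknown, since the table holds normalized values. The samples are bulk RNA, in which fewer cells of one type and less RNA per cell cannot be told apart.

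Glycolysis splits glucose into pyruvate in the cytosol, and lactate dehydrogenase converts pyruvate to lactate when it is not passed to the mitochondria. HIF is a pair of proteins, an alpha subunit that is hydroxylated and destroyed when oxygen is plentiful and a stable beta subunit, and at low oxygen it binds short DNA cores in the promoters of glycolytic and other genes and raises their transcription. Many of the steps of glycolysis are served by several isozymes encoded by separate genes, and fibroblasts of tumours are often described as glycolytic.

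The 3 microRNAs of the cluster carry 2 seeds, the bases that pair with a messenger RNA, shown in capitals in the mature sequences from RefSeq (GRCm38.p6, minus strand of chromosome 4). They are printed because canonical pairing of a microRNA with a messenger RNA uses these letters.
mmu-miR-200b-3p (chr4:156055685-156055706): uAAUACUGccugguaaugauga
mmu-miR-429-3p (chr4:156053916-156053937): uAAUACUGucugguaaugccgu
mmu-miR-200a-3p (chr4:156054911-156054932): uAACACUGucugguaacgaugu
The first seed, of miR-200b and miR-429, pairs with CAGTATT and the other, of miR-200a, with CAGTGTT. The longest 3′-UTR annotated among the complete protein-coding transcripts of each gene was searched. Of the 32 members that could be tested, 7 (21.9%) held one of these heptamers, against 30.3% of 12055 tested genes with a 3′-UTR. The match to miR-200b and miR-429 was present in Hif1a, Bnip3l and Egln1 (3 of 32, 9.38%, against 15.7% of tested genes), each shown in its 3′-UTR with the match in capitals (GRCm38).
Hif1a, plus strand, match at chr12:73947155-73947161: gtacaaaccttCAGTATTtgcagtatgaa
Bnip3l, minus strand, match at chr14:66987585-66987591: actctcaaatcCAGTATTttactcaaact
Egln1, minus strand, match at chr8:124910284-124910290: aaaaaaatttaCAGTATTattctcaaaat
The match to miR-200a was present in Epas1, Pfkm, P4ha1 and P4ha2 (4 of 32, 12.5%, against 20.8%). A match is a description of the sequence and not a site shown to be used.

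Of the 33 members, 32 had at least 0.5 CPM (normalized counts scaled to a common library total) in at least 2 samples and were tested, on log2(CPM + 0.5) by limma with Benjamini-Hochberg adjusted p values over the 12175 genes that passed the same filter. At an adjusted p under 0.01, Ldha and Pfkfb3 rose in CAF-200, and Ldhb, Eno2 and Ndrg1 fell. These are 2 of 32 members higher (6.25%) and 3 lower (9.38%), against 4.45% of all genes tested higher (542 genes) and 5.57% lower (678 genes), so the share that changed was near that of all genes. With each sample centred on its median, 720 of all genes were higher and 543 lower, and the members' counts stayed at 2 and 3. With a log2 difference beyond 1 as well, Eno2 and Ndrg1 were lower (background 2.35%) and no member was higher (background 2.37%), by limma. At an unadjusted p under 0.05 and any fold-change, 7 members were higher (all genes tested, 17.3%) and 8 lower (all genes tested, 27.6%). All 3 CAF-200 values lay above both CAF-vec values for 11 tested members (all genes tested, 24.3%) and below both for 8 (all genes tested, 37.3%). The log2 difference throughout is CAF-200 minus CAF-vec on the log2(CPM + 0.5) scale. Its median was 0.06 over the 32 members and -0.09 over all genes tested.

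These calls rest on few samples. Leaving out any 1 of the 3 CAF-200 samples left no member past the threshold by limma (6 or 7 lower and 3 to 6 higher at an unadjusted p under 0.05), with adjusted p values of the 5 genes between 0.0307 and 0.0573, and left 0 or 1 of all genes tested past it. Testing also the genes of low level gave the 5 genes adjusted p values of 0.0112 to 0.0126. With the lone CAF-vec sample of these fits assumed to vary like CAF-200, 5 members were lower and 8 higher without CAF-vec 1 (16.6% and 13.3% of all genes tested), and 9 were lower and 4 higher without CAF-vec 2 (31.3% and 19.4% of all genes tested). The CAF-vec samples were less alike than the CAF-200 samples. The standard deviation of the log2 difference between samples over all genes tested was 0.49 for the CAF-vec pair and 0.192 to 0.204 for the CAF-200 pairs, and 8 tested members differed by over 1.5 times between the CAF-vec samples against 1 between the CAF-200 samples. The columns also differed at the low end, since 1205 genes were at 0 in 1 CAF-vec sample only, whereas 0 genes were at 0 in just 1 or 2 of the CAF-200 samples. Whether the groups were processed alike before deposit, and how far that bears on the smaller spread in CAF-200, was not tested.

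**Figure D1:**
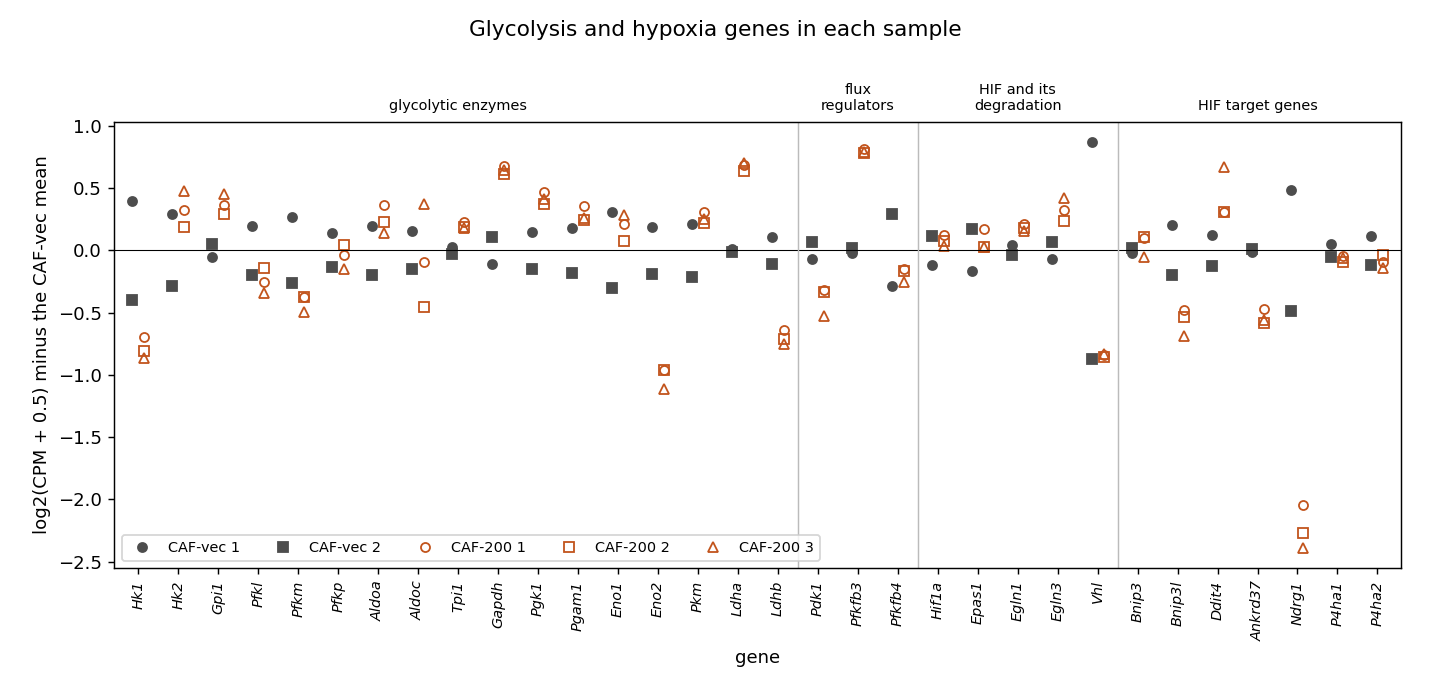
Level of each of the 32 tested members in each sample, as log2(CPM + 0.5) minus the mean of the 2 CAF-vec samples, with filled symbols for CAF-vec, open symbols for CAF-200 and vertical lines between the 4 groups of genes. The CAF-200 symbols of Ldha and Pfkfb3 lie above both CAF-vec symbols and those of Eno2, Ldhb and Ndrg1 below both, while CAF-vec 1 lies apart from the other 4 samples for Vhl.

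Among the enzymes, both genes of the last step changed, in opposite directions. Lactate dehydrogenase is an enzyme of 4 subunits drawn from the products of Ldha, which favours lactate formation, and Ldhb, which favours the reverse. Ldha (ENSMUSG00000063229, chromosome 7 of GRCm38, 46841475 to 46855627) was at 450.0 and 443.5 CPM in CAF-vec and at 719.5, 693.1 and 727.5 CPM in CAF-200. All CAF-200 values lay above both CAF-vec values, and Ldha rose 1.60-fold (log2 difference 0.67, SE 0.0959, limma adjusted p = 0.00758). Ldhb (ENSMUSG00000030246, chromosome 6, 142490249 to 142507957) was at 136.3 and 117.3 CPM in CAF-vec and at 81.1, 77.1 and 74.99 CPM in CAF-200. The groups did not overlap, and Ldhb fell by 0.70 on the log2 scale (SE 0.101, limma adjusted p = 0.00771), a 1.62-fold lower level. The ratio of Ldha to Ldhb within a sample, which does not depend on how samples were scaled to each other, was 3.30 and 3.78 in CAF-vec and 8.87, 8.99 and 9.70 in CAF-200. It was 3.54 ± 0.339 (SD, n = 2) in CAF-vec and 9.19 ± 0.449 (SD, n = 3) in CAF-200, a difference larger than the spread between samples. The exact permutation test on its log2 gave a two-sided p = 0.2, taken as the doubled one-sided value, which is the smallest that this version allows with 2 against 3 samples. That outcome was fixed once Ldha lay above and Ldhb below both CAF-vec values in every CAF-200 sample. It therefore adds nothing to the calls of the 2 genes.

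Per kilobase of the principal transcript, Ldha made up 70.9% and 73.6% of the lactate dehydrogenase signal in CAF-vec and 86.8% to 87.8% in CAF-200. With the length of all exons in place of the principal transcript, an alternative added after the data were seen, the difference between the groups was 18.7 instead of 14.9 percentage points.

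Of the enolases, which form phosphoenolpyruvate, Eno2 passed the threshold and Eno1 and Eno3 did not. Eno2 (ENSMUSG00000004267, chromosome 6, 124760053 to 124769673), the gamma enolase best known from neurons, was at 52.4 and 40.3 CPM in CAF-vec and at 23.4, 23.4 and 20.9 CPM in CAF-200. The CAF-200 values were close together and all below CAF-vec, and Eno2 fell by 1.01 on the log2 scale (SE 0.137, limma adjusted p = 0.00673). The log2 difference was -0.92 with quantile normalization and -0.91 with centring on each sample's median, inside the fold threshold. Without CAF-vec 1 it was -0.82, also inside that threshold, and without CAF-vec 2 it was -1.20. Eno1, the widespread alpha enolase, was at 564.9 and 370.3 CPM in CAF-vec and at 528.8, 482.2 and 555.7 CPM in CAF-200, so the groups overlapped (log2 difference 0.19, 95% interval -0.30 to 0.67, limma adjusted p = 0.485). Eno3, the muscle enolase, was at 24.3 and 16.9 CPM in CAF-vec and at 20.9, 19.5 and 17.2 CPM in CAF-200 (log2 difference -0.08, limma adjusted p = 0.730). Per kilobase, Eno2 made up 5.99% to 6.93% of the 3 genes in CAF-vec and 2.56% to 3.23% in CAF-200, and Eno3 4.97% to 5.21% and 3.76% to 4.81%. With the length of all exons, an alternative added after the data were seen, Eno2 held 8.55% to 9.82% and 3.78% to 4.69%. Eno3 then held 10.8% to 11.2% in CAF-vec and 8.41% to 10.6% in CAF-200, so the order of the 2 genes in CAF-vec depends on the length used. Eno1b, a near-identical copy of Eno1, was listed at 273.4 to 382.7 CPM over the 5 samples, so the reads of the pair may be split between them and the level of Eno1 is uncertain. The enolase shares leave out Eno1b and are uncertain for the same reason.

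At the first step, the hexokinases that trap glucose as glucose 6-phosphate, neither gene passed the threshold. Hk1 was at 125.3 and 72.2 CPM in CAF-vec and at 58.4, 54.2 and 51.9 CPM in CAF-200 (log2 difference -0.79, SE 0.231, limma adjusted p = 0.0495). Hk2, the isozyme described as inducible by HIF, was at 23.4 and 15.5 CPM in CAF-vec and at 24.0, 21.7 and 26.6 CPM in CAF-200, with overlapping groups (log2 difference 0.33, limma adjusted p = 0.232). CAF-vec 1 was the higher of the CAF-vec pair for both genes. Without CAF-vec 1 the log2 difference was -0.40 for Hk1 and 0.62 for Hk2, and without CAF-vec 2 it was -1.19 for Hk1 and 0.0385 for Hk2. Within each sample, Hk2 made up 12.7% and 14.3% of the per-kilobase signal of the pair in CAF-vec and 23.7% to 28.5% in CAF-200, so its share did not overlap between the groups. With the length of all exons, an alternative added after the data were seen, its share was 21.1% to 23.5% in CAF-vec and 36.4% to 42.3% in CAF-200.

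**Figure D2:**
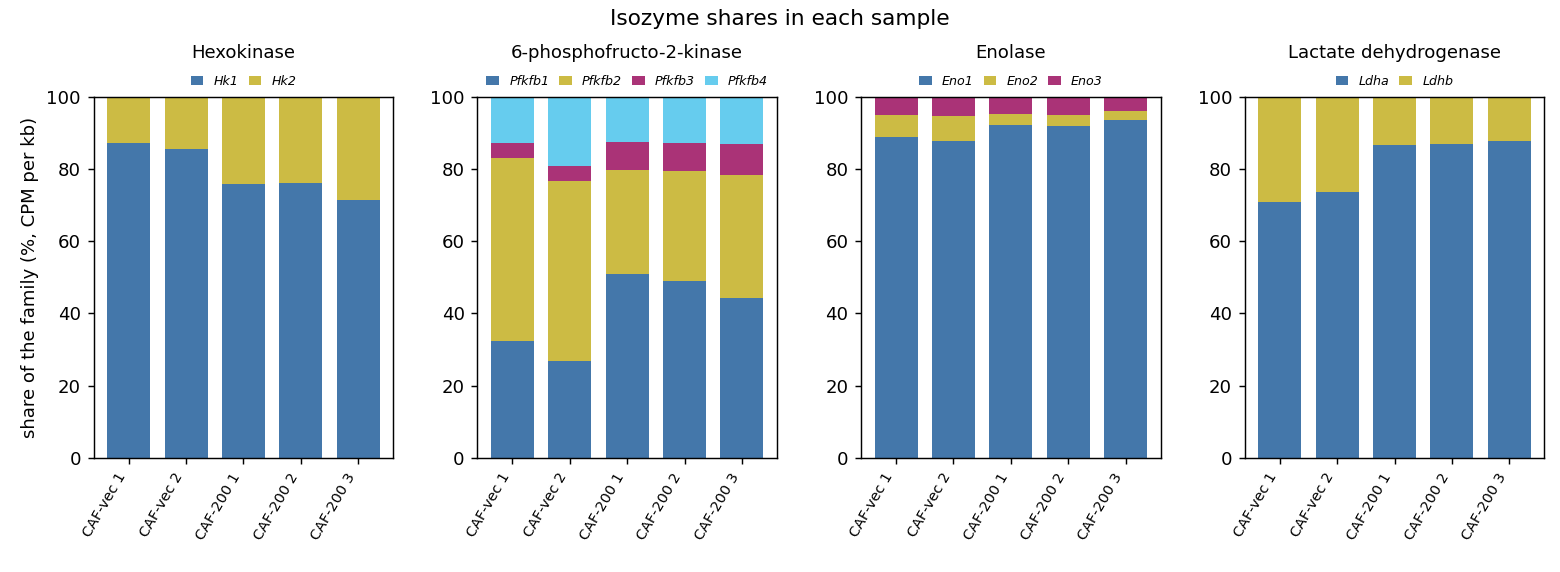
Share of each isozyme gene in its family in every sample, in percent of the family's summed CPM per kilobase of principal transcript, for the hexokinases, the 6-phosphofructo-2-kinases, the enolases and the lactate dehydrogenases. The Ldha share is 70.9% to 73.6% in CAF-vec and 86.8% to 87.8% in CAF-200, and the Hk2 share 12.7% to 14.3% and 23.7% to 28.5%. The enolase shares leave out Eno1b.

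None of the other enzymes passed the threshold by limma, with Gapdh, Gpi1 and Pgk1 (higher) and Pfkm (lower) at an unadjusted p under 0.05. Phosphofructokinase 1, the committed step of glycolysis, is encoded by Pfkl, Pfkm and Pfkp. Their log2 differences were -0.25 (limma adjusted p = 0.224), -0.42 (adjusted p = 0.108) and -0.05 (adjusted p = 0.784), and the Pfkl share of the per-kilobase signal of the trio was 56.2% to 57.7% in CAF-vec and 57.8% to 59.4% in CAF-200. Without CAF-vec 1 the log2 difference was -0.0492 for Pfkl and -0.15 for Pfkm, and without CAF-vec 2 it was -0.45 for Pfkl and -0.68 for Pfkm. Pfkm lies opposite Senp1 on the other strand and Pfkp opposite Pitrm1. The libraries were stranded, but whether strand was used in counting is not given in the sources used here.

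Gapdh, which makes the first NADH of the pathway and is often used as a reference gene, was at 1909 and 2225 CPM in CAF-vec and at 3301, 3147 and 3225 CPM in CAF-200. All CAF-200 values were higher, but the difference did not pass the threshold (log2 difference 0.65, SE 0.142, limma adjusted p = 0.0223). Gpi1, which converts glucose 6-phosphate to fructose 6-phosphate, was at 203.4 and 218.7 CPM in CAF-vec and at 271.1, 258.8 and 288.3 CPM in CAF-200 (log2 difference 0.37, limma adjusted p = 0.0372). Pgk1, which makes the first ATP, had a log2 difference of 0.42 (limma adjusted p = 0.0574), with 696.1 and 566.2 CPM in CAF-vec and 870.4, 812.8 and 834.7 CPM in CAF-200. Neither Gpi1 nor Pgk1 overlapped between the groups.

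Triosephosphate isomerase (Tpi1), phosphoglycerate mutase (Pgam1) and the muscle-type pyruvate kinase (Pkm), which makes pyruvate, had log2 differences of 0.20, 0.29 and 0.26 (limma adjusted p = 0.149, 0.158 and 0.241). Without CAF-vec 2 those of Pgam1 and Pkm were 0.11 and 0.0452, and without CAF-vec 1 they were 0.46 and 0.47. Each of these 3 genes was above both CAF-vec values in all CAF-200 samples. Aldoc, the brain-type aldolase, was at 0.547 and 0.348 CPM in CAF-vec and at 0.186 to 0.718 CPM in CAF-200, near the limit of the filter (log2 difference -0.06, adjusted p = 0.876). The row that the annotation names Aldoa (ENSMUSG00000114515, chromosome 7, 126800790 to 126809108) was at 2.88 and 2.07 CPM in CAF-vec and at 2.74 to 3.28 CPM in CAF-200 (log2 difference 0.24, adjusted p = 0.294). It lies next to the locus that RefSeq names Aldoa and overlaps only its end, so its value is no measure of total aldolase A, whose main gene identifier was not analysed here.

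Over the 17 enzymes, 1 rose (5.88%, against 4.45% of all genes tested) and 2 fell (11.8%, against 5.57%), and in all CAF-200 samples 7 lay above both CAF-vec values (all genes tested, 24.3%) and 4 below (all genes tested, 37.3%). Their median log2 difference was 0.20 against -0.09 for all genes tested, and it was 0.38 without CAF-vec 1 and 0.0385 without CAF-vec 2. Summed, the 17 enzymes took 6164 and 5667 CPM in CAF-vec and 8022, 7610 and 7857 CPM in CAF-200. The Aldoa row counted among the 17 is the one described above. The counts, median, sums and order of levels here therefore leave out the main aldolase A gene, and also the reads listed for Eno1b. Without Gapdh, the sums were 4255 and 3442 CPM in CAF-vec and 4720, 4463 and 4632 CPM in CAF-200. The order of levels per kilobase was led in both groups by Gapdh, at 1456 CPM per kilobase in CAF-vec and 2271 in CAF-200, followed by Pgk1 at 345.8 and 459.9. Ldha was the fifth member in CAF-vec at 253.0 CPM per kilobase, within the range of Tpi1 at 254.4 and Pgam1 at 238.9, and the third in CAF-200 at 403.9, beside Pkm at 402.9.

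**Figure D3:**
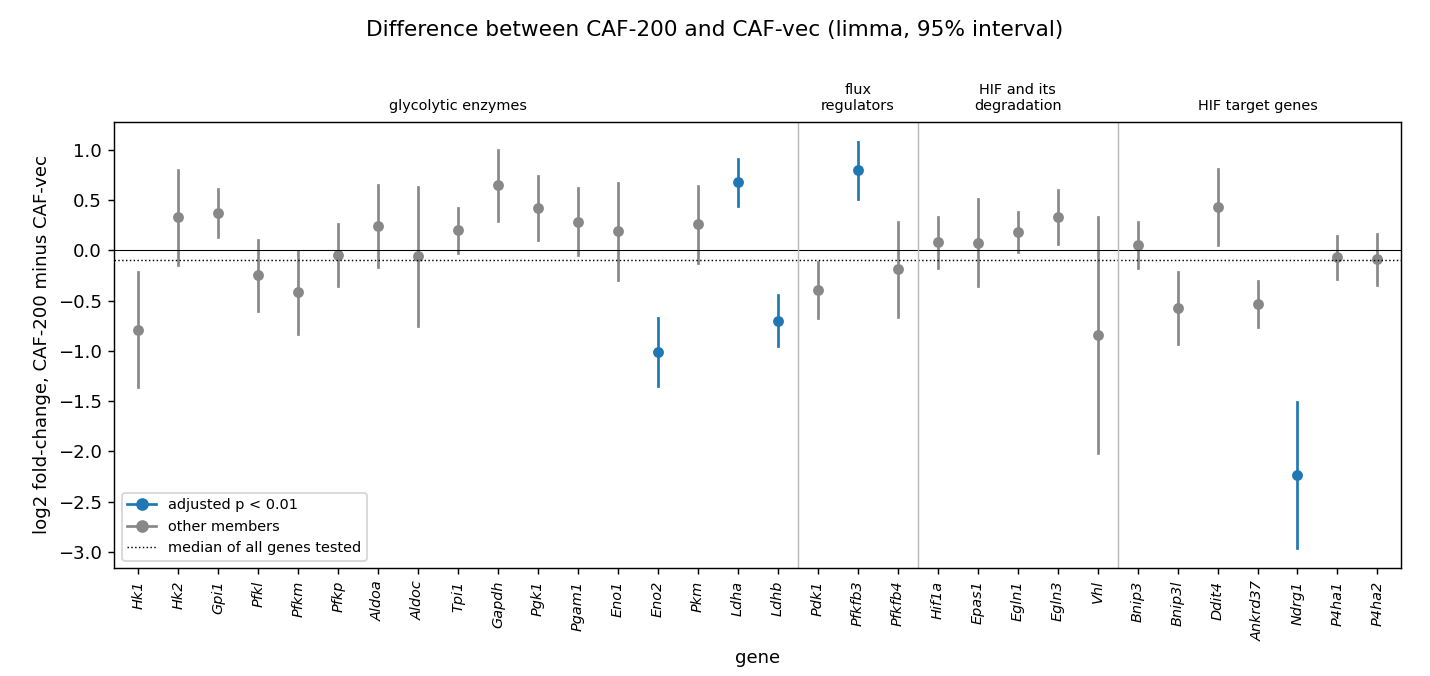
Log2 difference of each of the 32 tested members, CAF-200 minus CAF-vec, with its 95% interval from limma, in blue at an adjusted p under 0.01 and in grey otherwise, and a dotted line at the median of all genes tested. Ldha (0.67) and Pfkfb3 (0.80) lie above 0, Eno2 (-1.01), Ldhb (-0.70) and Ndrg1 (-2.23) below it, and the interval of Vhl is the widest.

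The bifunctional PFKFB enzymes make and break fructose 2,6-bisphosphate, the activator of phosphofructokinase 1, and the product of Pfkfb3 is the isozyme with the strongest kinase activity. Pfkfb3 (ENSMUSG00000026773, chromosome 2, 11471433 to 11554077) was at 1.53 and 1.59 CPM in CAF-vec and at 3.13, 3.03 and 3.06 CPM in CAF-200. Each group was tight and they lay far apart, and Pfkfb3 rose with a log2 difference of 0.80 (SE 0.114, limma adjusted p = 0.00765), which was 0.67 with a pseudocount of 1 and 0.94 with one of 0.1 because the level is low. Pfkfb4, also described as a HIF target, was at 3.20 and 5.04 CPM in CAF-vec and at 3.58, 3.54 and 3.31 CPM in CAF-200 (log2 difference -0.19, limma adjusted p = 0.473), and it was 0.10 without CAF-vec 2.

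Pfkfb3 was a small part of its family. It made up 4.34% and 4.37% of the per-kilobase signal of the 4 genes in CAF-vec and 7.86% to 8.71% in CAF-200. Pfkfb2, the isozyme best known from heart, held 50.03% to 50.6% in CAF-vec and 28.8% to 34.1% in CAF-200, and it fell by 0.60 on the log2 scale (16.4 and 16.9 CPM in CAF-vec, 10.6, 10.8 and 11.1 CPM in CAF-200, limma adjusted p = 0.00791). Pfkfb1, the liver-type isozyme, was at 4.44 and 3.81 CPM in CAF-vec and at 7.91, 7.33 and 6.07 CPM in CAF-200 (log2 difference 0.71, limma adjusted p = 0.0190).

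Pdk1, the kinase that inactivates pyruvate dehydrogenase and so keeps pyruvate out of the mitochondria, was at 12.9 and 14.2 CPM in CAF-vec and at 10.7, 10.6 and 9.26 CPM in CAF-200. It was lower in every CAF-200 sample without passing the threshold (log2 difference -0.39, limma adjusted p = 0.0459). Its relatives Pdk2, Pdk3 and Pdk4 had log2 differences of -0.43 (adjusted p = 0.0262), 0.13 (adjusted p = 0.472) and 0.08 (adjusted p = 0.778). Per kilobase, Pdk1 was the least abundant of the 4 kinases, at 4.73% to 6.90% of their sum in CAF-vec and 3.98% to 4.50% in CAF-200. Of the 13 genes of pyruvate dehydrogenase, its kinases and phosphatases and the mitochondrial pyruvate carrier, 1 fell (7.69%, against 5.57% of all genes tested) and 0 rose by limma. At an unadjusted p under 0.05 by limma, 4 were lower and 1 higher (all genes tested, 27.6% and 17.3%). The median log2 difference of the 13 genes was -0.02. The gene that fell was Pdhb, the beta subunit of the first enzyme of the complex, from 61.8 and 58.1 CPM to 38.7, 38.0 and 38.9 CPM (log2 difference -0.63, limma adjusted p = 0.00575), while Pdha1, the alpha subunit, was at 132.5 and 136.7 CPM in CAF-vec and 161.2, 154.0 and 155.0 CPM in CAF-200 (log2 difference 0.22, adjusted p = 0.0931).

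None of the 5 genes of HIF and its degradation passed the threshold by limma, and 1 (Egln3, higher) had an unadjusted p under 0.05. Hif1a, the alpha subunit found in most cells, was at 67.5 and 79.6 CPM in CAF-vec and at 79.9, 77.4 and 75.01 CPM in CAF-200, with overlapping groups (log2 difference 0.08, 95% interval -0.18 to 0.33, adjusted p = 0.581). Its messenger RNA says little of the protein, which is controlled by degradation. Gm49321 overlaps it on the same strand. Epas1, which encodes HIF-2 alpha, was at 0.401 and 0.639 CPM in CAF-vec and at 0.641, 0.534 and 0.533 CPM in CAF-200 (log2 difference 0.08, adjusted p = 0.755). Per kilobase, Hif1a made up 99.3% to 99.5% of the signal of the 2 alpha subunits in CAF-vec and 99.3% to 99.4% in CAF-200.

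The prolyl hydroxylases mark HIF for destruction, and Egln3 is itself a HIF target. Egln1 was at 37.6 and 35.5 CPM in CAF-vec and at 42.3, 41.4 and 40.7 CPM in CAF-200 (log2 difference 0.18, adjusted p = 0.143). Egln3 was at 7.04 and 7.79 CPM in CAF-vec and at 9.41, 8.83 and 10.1 CPM in CAF-200 (log2 difference 0.33, adjusted p = 0.0697). Both were above CAF-vec in all CAF-200 samples. Egln2, the most abundant of the 3 hydroxylases per kilobase in every sample, was at 115.8 and 59.99 CPM in CAF-vec and at 53.1, 45.5 and 48.4 CPM in CAF-200 (log2 difference -0.76, adjusted p = 0.0822). Vhl, which binds hydroxylated HIF and leads it to degradation, was at 68.3 CPM in CAF-vec 1, while CAF-vec 2 had 20.1 CPM and the CAF-200 samples 20.3 to 20.6 CPM. Its log2 difference of -0.84 (95% interval -2.02 to 0.33, limma adjusted p = 0.217) rests on CAF-vec 1, and it was 0.03 without that sample and -1.71 without CAF-vec 2.

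Of 17 other regulators of HIF, 16 were tested, and 1 fell (6.25%, against 5.57% of all genes tested) and 0 rose by limma. At an unadjusted p under 0.05 by limma, 6 were lower and 1 higher (all genes tested, 27.6% and 17.3%). The median log2 difference of the 16 genes was -0.07. The gene that fell was Arnt2, a beta subunit best known from neurons, from 81.0 and 96.0 CPM to 50.5, 54.2 and 45.2 CPM (log2 difference -0.82, limma adjusted p = 0.00841). Arnt, the widespread beta subunit, was also lower in every CAF-200 sample, with 39.9 and 34.1 CPM in CAF-vec and 25.5, 27.1 and 23.1 CPM in CAF-200, but did not pass the threshold (log2 difference -0.54, adjusted p = 0.0210). Hif1an, the asparaginyl hydroxylase that blocks the activity of HIF, had a log2 difference of -0.21 (adjusted p = 0.196).

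The largest change of a member was in Ndrg1, a gene induced by hypoxia and by iron shortage whose product restrains growth and migration in several cell types. Ndrg1 (ENSMUSG00000005125, chromosome 15, 66929318 to 66969640) was at 39.0 and 19.6 CPM in CAF-vec and at 6.35, 5.34 and 4.89 CPM in CAF-200. The CAF-vec samples differed from each other by 1.99 times, yet both were above all CAF-200 samples, and Ndrg1 fell by 2.23 on the log2 scale (SE 0.292, limma adjusted p = 0.00605), a 4.70-fold lower level. Without CAF-vec 1 the log2 difference was -1.75 and without CAF-vec 2 it was -2.72.

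Of the other HIF target genes among the members, none passed the threshold by limma, and Ankrd37, Bnip3l and Ddit4 had an unadjusted p under 0.05. Ankrd37 (log2 difference -0.54, limma adjusted p = 0.0116) was at 14.1 and 14.3 CPM in CAF-vec and at 10.1, 9.29 and 9.48 CPM in CAF-200, and it lies opposite Ufsp2 and Lrp2bp. Bnip3 and Bnip3l encode receptors that mark mitochondria for autophagy. Bnip3l was at 104.8 and 79.3 CPM in CAF-vec and at 65.1, 62.6 and 56.3 CPM in CAF-200, lower in every CAF-200 sample (log2 difference -0.57, adjusted p = 0.0334), while Bnip3 was at 62.9 and 64.9 CPM in CAF-vec and at 68.5, 69.0 and 61.4 CPM in CAF-200 (log2 difference 0.05, adjusted p = 0.692). Bnip3l is one of the 3 members with the CAGTATT match shown above. The other 2, Hif1a and Egln1, had log2 differences of 0.08 and 0.18.

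Ddit4, an inhibitor of mTORC1, was at 37.1 and 31.2 CPM in CAF-vec and at 42.3, 42.3 and 54.4 CPM in CAF-200, higher in every CAF-200 sample (log2 difference 0.43, limma adjusted p = 0.0798). P4ha1 and P4ha2, the catalytic subunits of collagen prolyl 4-hydroxylase, had log2 differences of -0.07 (95% interval -0.28 to 0.15, adjusted p = 0.569) and -0.09 (95% interval -0.35 to 0.16, adjusted p = 0.521), at 187.3 to 208.0 and 49.1 to 58.8 CPM over the 5 samples. Car9, the carbonic anhydrase used as a marker of hypoxic tumours, was at 0 in the CAF-vec pair and at 0.0203, 0.000183 and 0.0411 CPM in CAF-200, below the filter, and was not tested. The median log2 difference of the 7 tested target genes was -0.09, the same as that of all genes tested, and it was 0.0248 with quantile normalization and 0.0053 with centring on each sample's median.

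A longer list held 33 other HIF target genes. Of 30 tested, 5 fell (16.7%, against 5.57% of all genes tested) and 3 rose (10.0%, against 4.45%), with a median log2 difference of -0.10 (all genes tested, -0.09). The genes that rose were the transferrin receptor Tfrc (14.5 and 16.3 CPM in CAF-vec, 39.5, 38.0 and 44.7 CPM in CAF-200), the heme oxygenase Hmox1 (350.2 and 508.7 CPM, then 1027, 950 and 1181 CPM) and the glycogen branching enzyme Gbe1 (2.85 and 3.85 CPM, then 8.96, 7.15 and 9.73 CPM). Their log2 differences were 1.37, 1.31 and 1.24 (limma adjusted p = 0.00255, 0.00810 and 0.00795).

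The 5 that fell were Edn1, which encodes the vasoconstrictor endothelin (12.8 and 18.4 CPM in CAF-vec, 4.94, 6.32 and 4.35 CPM in CAF-200), the lipoprotein receptor Vldlr (20.5 and 14.9 CPM, then 7.63, 6.74 and 6.54 CPM), the histone demethylase Kdm4b, the transcriptional regulator Zfp395 and the repressor Bhlhe41. Their log2 differences were -1.49, -1.27, -0.98, -0.91 and -0.69 (limma adjusted p = 0.00765, 0.00570, 0.00869, 0.00709 and 0.00877). Vegfa, the vascular growth factor, was at 62.2 and 64.6 CPM in CAF-vec and at 93.6, 88.2 and 101.4 CPM in CAF-200, just outside the threshold (log2 difference 0.57, adjusted p = 0.0106).

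**Figure D4:**
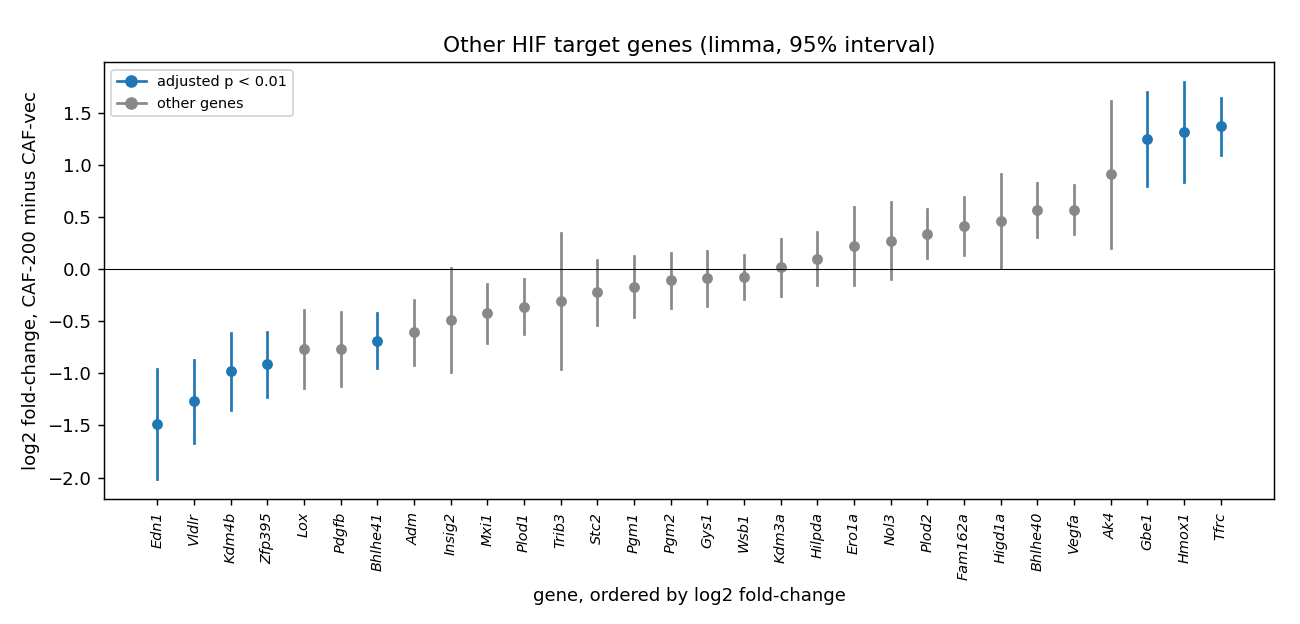
Log2 difference, CAF-200 minus CAF-vec, of the 30 tested genes of the longer list of HIF targets in order of size, with 95% intervals from limma, in blue at an adjusted p under 0.01 and in grey otherwise. The genes run from Edn1 (-1.49) to Tfrc (1.37), with 5 blue genes below 0 and 3 above.

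The promoters of the members were searched for the cores ACGTG and GCGTG, the letters HIF is known to bind, on both strands, counting overlapping matches as 1. The windows run from 250 bases before to 50 after the RefSeq start site. Of 28 tested members with a window, 23 (82.1%) held a core and 18 (64.3%) held at least 2, against 64.6% and 31.9% of 9324 tested genes. Ldha, which rose, held 2 cores, Pfkfb3, which rose, and Ldhb, which fell, held 1 each, and no core was found in this window of Eno2. Ndrg1, Epas1, Bnip3l and Aldoa were not searched. The first 3 windows are shown with the cores in capitals, so that the letters can be set beside the direction of change (RefSeq, GRCm38.p6).
Ldha, plus strand (chr7:46846832-46847131): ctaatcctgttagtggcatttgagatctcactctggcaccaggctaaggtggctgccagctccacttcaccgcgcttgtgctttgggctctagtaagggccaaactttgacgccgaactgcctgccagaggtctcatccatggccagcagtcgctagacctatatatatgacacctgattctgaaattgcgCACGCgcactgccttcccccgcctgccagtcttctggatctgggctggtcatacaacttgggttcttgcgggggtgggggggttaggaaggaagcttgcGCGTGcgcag
Pfkfb3, minus strand (chr2:11553880-11554179): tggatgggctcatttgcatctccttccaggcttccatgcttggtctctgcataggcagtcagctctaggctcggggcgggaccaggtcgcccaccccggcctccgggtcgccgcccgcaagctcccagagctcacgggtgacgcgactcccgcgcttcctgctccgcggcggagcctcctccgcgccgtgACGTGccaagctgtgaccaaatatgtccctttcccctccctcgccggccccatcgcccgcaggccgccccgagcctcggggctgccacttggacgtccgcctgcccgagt
Ldhb, minus strand (chr6:142507908-142508207): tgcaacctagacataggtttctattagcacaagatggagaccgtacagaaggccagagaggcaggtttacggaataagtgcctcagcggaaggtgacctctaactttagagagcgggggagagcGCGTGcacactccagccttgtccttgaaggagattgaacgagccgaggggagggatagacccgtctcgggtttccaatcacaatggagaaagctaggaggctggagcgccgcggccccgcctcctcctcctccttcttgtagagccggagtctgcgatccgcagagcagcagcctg
Among members that did not pass the threshold, Hk1, Pfkp, Bnip3 and P4ha2 held 4 cores each, with log2 differences of -0.79, -0.05, 0.05 and -0.09.

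Neighbouring pathways were read from lists given by name. Among 7 genes of glucose and lactate transport, 3 were tested and 0 passed the threshold by limma, with 1 (Slc16a1, higher) at an unadjusted p under 0.05. The main glucose carrier Slc2a1 was at 36.7 and 38.4 CPM in CAF-vec and at 37.0, 35.7 and 39.0 CPM in CAF-200 (log2 difference -0.01, 95% interval -0.22 to 0.20, adjusted p = 0.920). The lactate exporter Slc16a3 was at 0 in the CAF-vec pair and at 0.161 to 0.321 CPM in CAF-200, below the filter. The 19 genes of the tricarboxylic acid cycle and the 7 tested of the pentose phosphate pathway held no gene past the threshold by limma, with medians of -0.12 and -0.05. At an unadjusted p under 0.05, 3 genes of the cycle were lower and 4 higher, and 1 of the pentose phosphate pathway was lower and 2 higher. Of all genes tested, 27.6% were lower and 17.3% higher at that level, and these shares apply to each list here. Of 12 other isozymes of glycolysis, 2 were tested (Bpgm and Eno3) and 0 passed the threshold or an unadjusted p under 0.05 by limma. Of 9 genes of gluconeogenesis and fructose 2,6-bisphosphate turnover, 5 were tested and 1, Pfkfb2 described above, was past it (lower, 1 of 5, against 5.57% of all genes tested). At an unadjusted p under 0.05, 2 of the 5 were lower and 1 higher. Of 10 tested regulators of glycolytic transcription, Myc rose from 45.9 and 52.6 CPM to 89.9, 78.6 and 87.9 CPM (log2 difference 0.79, limma adjusted p = 0.00691) and 0 fell. The share higher was 1 of 10, against 4.45% of all genes tested. At an unadjusted p under 0.05, 2 were higher (Myc and Trp53) and 3 lower.

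The levels of the microRNAs themselves were not analysed here, since the table holds 0 rows for their genes. Zeb1 and Zeb2, established targets of miR-200, had log2 differences of -0.36 (limma adjusted p = 0.0504) and -0.23 (adjusted p = 0.374). Of 10 fibroblast markers, all were tested, 3 rose (Dcn, Lum and Thy1, with log2 differences of 2.75, 2.82 and 1.46, against 4.45% of all genes tested) and 0 fell. At an unadjusted p under 0.05, 4 were higher (all genes tested, 17.3%) and 2 lower (all genes tested, 27.6%) by limma. The lower ones were Col1a1 (log2 difference -0.91) and Pdgfrb (-0.25), and the log2 differences of the 10 were 5 above and 5 below 0. Their sum ranged between 13384 and 17245 CPM in CAF-vec and between 10760 and 11749 CPM in CAF-200. The 9 epithelial markers were each under 0.5 CPM in every sample, with 3 at 0 throughout, and summed to between 0.0843 and 0.452 CPM over the 5 samples. The 7 endothelial markers summed to 0.167 to 1.06 CPM and 0.223 to 0.508 CPM, and the 6 of smooth muscle and pericytes to 7.70 to 8.96 CPM and 6.66 to 7.87 CPM. The 8 leukocyte markers summed to 8.38 and 9.50 CPM in the CAF-vec pair and 12.2, 12.9 and 12.5 CPM in CAF-200, where Lyz2 rose (log2 difference 1.91, adjusted p = 0.00395), while Cd68 and Csf1r, the other tested ones, had log2 differences of -0.14 and -0.46 (adjusted p = 0.758 and 0.250), Adgre1 and Cd3e were at 0 in all samples and Ptprc under 0.5 CPM. The part of these shifts in the results above was not tested.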

How the data were processed

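Murine lung CAFs carrying the empty vector (CAF-vec, n = 2) or the miR-200 cluster (CAF-200, n = 3) were compared. The authors deposited normalized CPM values in a table named for TMM (trimmed mean of M values, a scaling between libraries). The submitters' processing notes name FastQC, cutadapt, Trimmomatic, STAR, RSEM, edgeR and the builds GRCm38 and mm10. Columns summed to 999956 to 1000111 CPM and whole reads could not be recovered, so depth is unknown, no count test was run, and no counting interval is given. The labels and methods differ in vector, in extraction kit and in replicate number (the methods describe triplicates). All 5 sample columns were used and 0 left out.

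Names and positions came from GENCODE M21 (GRCm38), which named 21795 of 21835 genes. The 12175 genes reaching 0.5 CPM in 2 or more samples were tested on log2(CPM + 0.5), which understates the fold-change of low genes, with limma 3.58.1 in R 4.3.3 (lmFit, eBayes with a variance trend) and Benjamini-Hochberg adjustment. The script was tested on simulated data in which both groups had the same spread for a gene, unlike the samples here. "Rose" and "fell" mean a limma-adjusted p under 0.01. The second rule, a log2 difference beyond 1 as well, is the threshold pair of the study. The members and lists were chosen with earlier results of these data known. All members were named, and from other lists the genes past the threshold (at most 5 a direction) plus a few fixed genes. An item of the longer list is not reported here and was left out of its counts. Lists were described by counts and medians beside those of all genes. Isozyme shares used CPM per kilobase of principal transcript. Seed matches were read from the GENCODE 3′-UTRs and promoter windows from RefSeq. Alternatives were 2 pseudocounts, no or a stricter filter, quantile normalization, median centring, no variance trend, other thresholds, the replicate block and leaving out each sample. Tables were built in Python 3.11.15 (SciPy 1.17.1, pandas 2.3.3, numpy 2.4.6) and plots in matplotlib 3.10.9.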

Additional observations from a re-analysis of the deposited data

How the results depend on the processing

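With only 2 and 3 samples, the calls depended on which sample was left out more than on the scaling. Leaving out 1 sample gave 0 to 9 members lower and 0 to 8 higher at an adjusted p under 0.01, 0 to 4 lower with a log2 difference below -1 as well, and 0 to 3766 of all genes lower and 0 to 2329 higher. The lone CAF-vec sample of 2 of these fits was assumed to vary like the CAF-200 samples. Without the filter on low values, 0 members were lower (7 at an unadjusted p under 0.05, limma), 0 were higher (8 at an unadjusted p under 0.05) and 0 were lower past the fold threshold (2 at an unadjusted p under 0.05), with 376 of all genes lower and 347 higher among 16044 tested. With an adjusted p under 0.05, 7 members were lower and 4 higher, and 2265 of all genes lower and 1446 higher. With a log2 difference beyond 0.5, 2 members were higher and 3 lower (4.44% and 5.56% of all genes tested). Eno2 lost its fold threshold with a pseudocount of 1, quantile normalization and median centring, leaving 1 member lower past it in each. The log2 difference of Eno2 was also inside that threshold with the replicate block (-0.96), without CAF-vec 1 (-0.82) and without CAF-200 3 (-0.96).

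Of the calls over all genes, 55.6% were lower, against 46.0% with quantile normalization and 43.0% with median centring. The median log2 difference of the glycolytic enzymes ranged from 0.0385 to 0.38 without 1 sample, and that of the HIF target genes from -0.21 to -0.0141, with 0.0248 under quantile normalization and 0.0053 under median centring. Over all genes tested the median was -0.0939 in the main fit, -0.0163 under quantile normalization and 0.0027 under median centring. Of 32 tested members, 23 kept their direction in every alternative that tested them. Reversed log2 differences, none past the threshold, were those of Pfkp (0.0308 with quantile normalization, 0.0490 with median centring, 0.0041 with the replicate block, -0.18 to 0.0895 without 1 sample), Aldoc (0.0355 with median centring and -0.21 to 0.14 without 1 sample), P4ha1 (0.0451 and 0.0280) and P4ha2 (0.0248 and 0.0053) with quantile normalization and median centring, and, without 1 sample, P4ha2 (-0.21 to 0.0263), Hif1a (-0.04 to 0.20), Epas1 (-0.0934 to 0.25), Vhl (-1.71 to 0.0266), Eno1 (-0.12 to 0.49) and Pfkfb4 (-0.48 to 0.10). The end past 0 came without CAF-vec 1 for the first 4 and without CAF-vec 2 for the last 2. Median centring moves the log2 difference of every gene by the same amount, which turned the small negative values of Pfkp, Aldoc, P4ha1 and P4ha2 positive. Why the other values reversed was not tested. The Ldha share differed by 18.7 instead of 14.9 percentage points with the length of all exons.

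The samples share only replicate numbers. Same-numbered deviations from the group means correlated at 0.249 (replicate 1) and 0.134 (replicate 2) across genes. The deviations of the 2 CAF-vec samples are equal and opposite, so the 2 correlations are not independent of each other. With the replicate number as a block, which leaves CAF-200 3 without a partner, 1 member was lower at an adjusted p under 0.01 (Ndrg1, 0.00783, also past the fold threshold), 0 were higher (2 at an unadjusted p under 0.05, limma), and 70 of all genes were lower and 101 higher. The depth is unknown, so the counting error of low genes (Epas1, Aldoc, Car9 and Pfkfb3) could not be estimated.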
